A study of Mus musculus with 2 samples.

Results

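Microglia, the macrophages that reside in the brain, are described here where their library held almost no RNA from the mitochondrial genome. The cells were chosen by 4 measured values, their total UMIs, genes, mitochondrial share and Cdkn1a count. A cell was included when it had at least 500 UMIs (unique molecular identifiers, each standing for 1 captured RNA molecule) and at least 300 genes detected, when genes with the prefix mt- held under 0.35% of its UMIs, and when it had under 2 UMIs of Cdkn1a, the gene of the cell cycle inhibitor p21. In the plasma-negative library 867 of 9877 cells met the rule (8.78%, exact binomial 95% interval 8.23 to 9.35%), and in the plasma-positive library 385 of 10390 cells did (3.71%, 3.35 to 4.09%). Both libraries came from the hypothalamus of young wild-type mice that were pooled and that had all received dye-labelled plasma protein 20 hours before the cells were sorted. The plasma-negative library holds sorted microglia without the dye and the plasma-positive library sorted microglia with it, and no uninjected animals were analysed here. The labels give no number or sex of the pooled mice and no sorting gates. There was 1 library per group and cells of 1 library are not replicates, so no test was run, and every interval covers counting error only.

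As background, the mitochondrial genome encodes core subunits of the respiratory chain, and its transcripts are made and kept inside the mitochondrion. Malat1 is a long non-coding RNA that is retained in the nucleus, in the speckles where splicing factors collect. Transcripts of ribosomal proteins are short, abundant and mostly in the cytoplasm.

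Each low-mitochondrial cell was set against a reference cell of the same library with 0.8 to 1.6% mitochondrial UMIs and under 2 UMIs of Cdkn1a, taken as the closest in total UMIs within 5%. The libraries held 4176 plasma-negative and 4807 plasma-positive reference cells. A partner was found for 826 and 352 low-mitochondrial cells, which had 2235848 and 965344 UMIs against 2232904 and 964304 in their partners. The 41 and 33 cells without a partner all had under 1000 UMIs. The whole libraries held 34549522 and 42006454 UMIs with medians of 3268 and 3748 per cell. Levels below are CPM, counts per 1000000 UMIs of the summed cells, and shares are percentages of the same sums, so a lower share of one group of genes raises the shares of the others. Values compared between 2 genes are not corrected for transcript length, because molecules were counted at the 3' end.

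The low-mitochondrial cells carried the markers of microglia. At least 4 of 12 microglia markers were found in 824 of 826 plasma-negative and in 352 of 352 plasma-positive matched cells, against 824 of 826 and 352 of 352 reference cells. The median cell had 11 of the 12 in each of these groups. The summed level of the 12 markers was 42640 CPM against 42898 CPM in the reference of the plasma-negative library, and 42087 against 41021 CPM in the plasma-positive library. No low-mitochondrial cell had 4 markers of any of the 13 other cell types looked for. All markers of neutrophils, T or NK cells, ependymal cells and erythroid cells were at 0 in the low-mitochondrial cells of both libraries. The marker lists with the highest summed levels were those of the oligodendrocyte lineage, at 100 against 94.0 CPM and 112 against 93.3 CPM, and of B cells, at 44.7 against 52.8 CPM and 54.9 against 47.7 CPM. The B cell signal was Cd79b alone, in 11 and 12.8% of low-mitochondrial cells and in 12.2 and 11.6% of reference cells. The most frequent oligodendrocyte marker was Mag, in 9.81 and 8.52% against 9.20 and 8.24%.

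The rule itself set the mitochondrial values, which are given as a description. Summed over matched cells, the 13 mt- genes held 0.186% of UMIs in the low-mitochondrial cells and 1.17% in the reference of the plasma-negative library, and 0.219 against 1.16% in the plasma-positive library. The median low-mitochondrial cell had 4 mitochondrial UMIs in the plasma-negative and 5 in the plasma-positive library, and the highest had 27 and 25. No mitochondrial UMI at all was seen in 208 plasma-negative and 70 plasma-positive low-mitochondrial cells. The most abundant of the genes, mt-Co3, a subunit of cytochrome c oxidase, was detected in 44.2 and 51.9% of the low-mitochondrial cells. It made up 16.8% of their mitochondrial UMIs in the plasma-negative library against 16.9% in the reference, and 16.4 against 16.8% in the plasma-positive library. For mt-Cytb, of complex III, these shares were 13.6 against 12.5% and 13.2 against 12.5%.

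**Figure D1:**
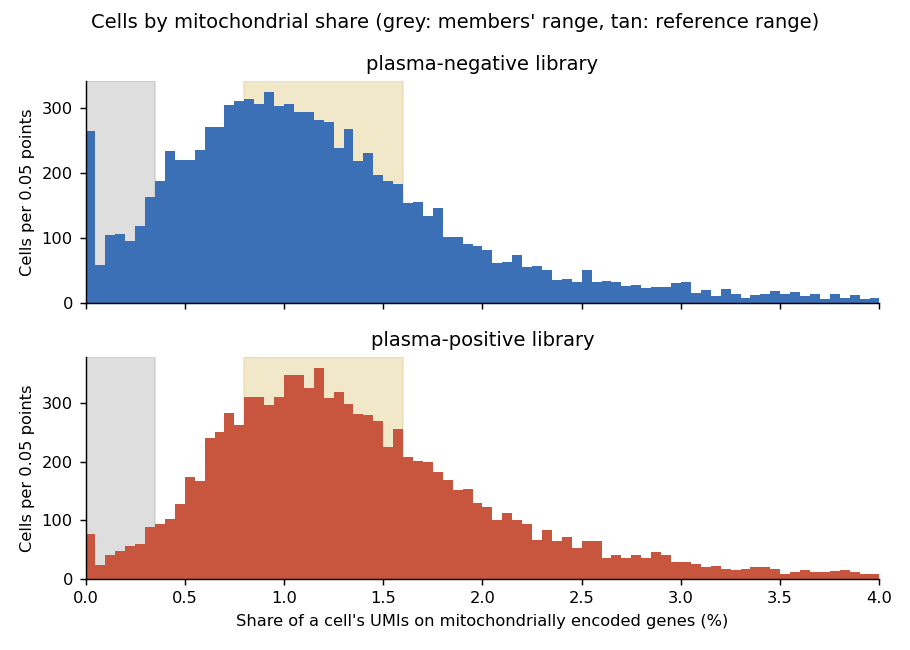
Number of cells (vertical axis) by the share of a cell's UMIs on mt- genes (horizontal axis, percent, in steps of 0.05 points) in the plasma-negative library (blue, top) and the plasma-positive library (red, bottom), over all cells with at least 500 UMIs and 300 genes whatever their Cdkn1a count; cells above 4% are not drawn. The grey band is the range of the low-mitochondrial cells and the tan band that of the reference; the first bar, from 0 to 0.05%, holds 265 and 76 cells, more than the second bar with 58 and 23.

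The limit of 0.35% did not fall in a gap. Over all cells the mitochondrial share was lower in the plasma-negative library, with a median of 1.08% and a first quartile of 0.686%. The plasma-positive library had 1.28 and 0.882%, and the part of this in the shares of low-mitochondrial cells was not tested. Cells just inside it, at 0.3 to 0.35%, numbered 160 and 88, and cells just outside it, at 0.35 to 0.4%, numbered 185 and 93. In the plasma-negative library Malat1 held 7.31% of UMIs just inside and 7.63% just outside, and ribosomal protein genes held 8.26 and 8.41%. In the plasma-positive library Malat1 held 6.56 and 6.23%, and ribosomal protein genes held 9.38 and 9.20%. Cells on both sides of the limit were thus close to each other in both measures.

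Low-mitochondrial cells were more common among shallow cells. In the plasma-negative library they made up 17.3% of cells with 500 to 1000 UMIs, 12.9% at 1000 to 2000, 9.72% at 2000 to 4000 and 3.42% above 4000. In the plasma-positive library the same shares were 15.2, 4.59, 4.52 and 1.12%. The intervals of the 2 libraries overlapped in the shallowest range (14.8 to 20.1% and 12.4 to 18.2%) and did not in the deeper ones. Most low-mitochondrial cells still lay at 2000 to 4000 UMIs, 523 of the plasma-negative and 210 of the plasma-positive cells. Depth also enters the rule, since 1 mitochondrial UMI is already 0.2% of a cell of 500 UMIs. Of the cells without any mitochondrial UMI, 85 of 208 and 52 of 70 had 500 to 1000 UMIs.

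Malat1 was higher in the low-mitochondrial cells of both libraries. The gene (ENSMUSG00000092341) is annotated in GENCODE M21 as a lincRNA with a single exon, at chr19:5795690-5802672 of GRCm38, minus strand. It had 79297 CPM in plasma-negative low-mitochondrial cells and 68842 CPM in their reference, from 177297 and 153718 UMIs, a ratio of 1.15 (95% interval 1.14 to 1.16). Plasma-positive cells had 70501 and 60331 CPM, from 68058 and 58177 UMIs, a ratio of 1.17 (1.16 to 1.18). Both ratios lie under the 1.5-fold used below for calling a gene. On the log2 scale they were 0.20 and 0.22, within the quartiles of all genes at 50 CPM or more. Those quartiles were -0.05 and 0.25 in the plasma-negative library and -0.11 and 0.25 in the plasma-positive library, with medians of 0.11 and 0.07. From cell to cell the share ran from 0.0695 to 29.0% with a median of 7.99% in the matched plasma-negative low-mitochondrial cells, against 0 to 27.6% with a median of 6.66% in their partners. For plasma-positive cells it ran from 0.0302 to 29.3% with a median of 7.26%, against 0 to 27.7% with a median of 5.82%. The 2 distributions overlapped over nearly their whole range in each library, with the quartiles at 6.05 and 10.6% against 5.0 and 9.28% in the plasma-negative and 5.25 and 10.3% against 4.04 and 8.41% in the plasma-positive library. Reference cells with nearly no Malat1 were more frequent than low-mitochondrial ones: under 1% of UMIs was found in 17 reference against 1 low-mitochondrial cell of 826, and in 13 against 3 of 352.

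The Malat1 difference was present in each of the 4 depth ranges, and Malat1 differed more between the shallowest range and the others than between the groups of cells. Between 500 and 1000 UMIs Malat1 held 17.8% of UMIs in low-mitochondrial and 16% in reference cells of the plasma-negative library, and above 4000 UMIs it held 6.61 and 5.88%. The plasma-positive values were 17.7 against 14.4% and 6.13 against 5.31%. The ratio over the 4 depth ranges was 1.11, 1.12, 1.17 and 1.12 in the plasma-negative library and 1.23, 1.17, 1.16 and 1.15 in the plasma-positive library, and no interval reached 1. Cells with at least 15% Malat1 were shallow in both groups: they numbered 107 of 826 low-mitochondrial cells with a median of 863 UMIs and 92 of 826 reference cells with a median of 855.5 UMIs in the plasma-negative library. Among plasma-positive cells they numbered 53 and 41 of 352, with medians of 751 and 740 UMIs. Their median share of ribosomal protein UMIs was 1.52 and 1.55% in the plasma-negative and 1.62 and 1.74% in the plasma-positive library, and their median cell had 8 or 9 of the 12 microglia markers. A shallow, Malat1-rich and ribosome-poor profile was thus seen in low-mitochondrial and in reference cells alike.

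**Figure D2:**
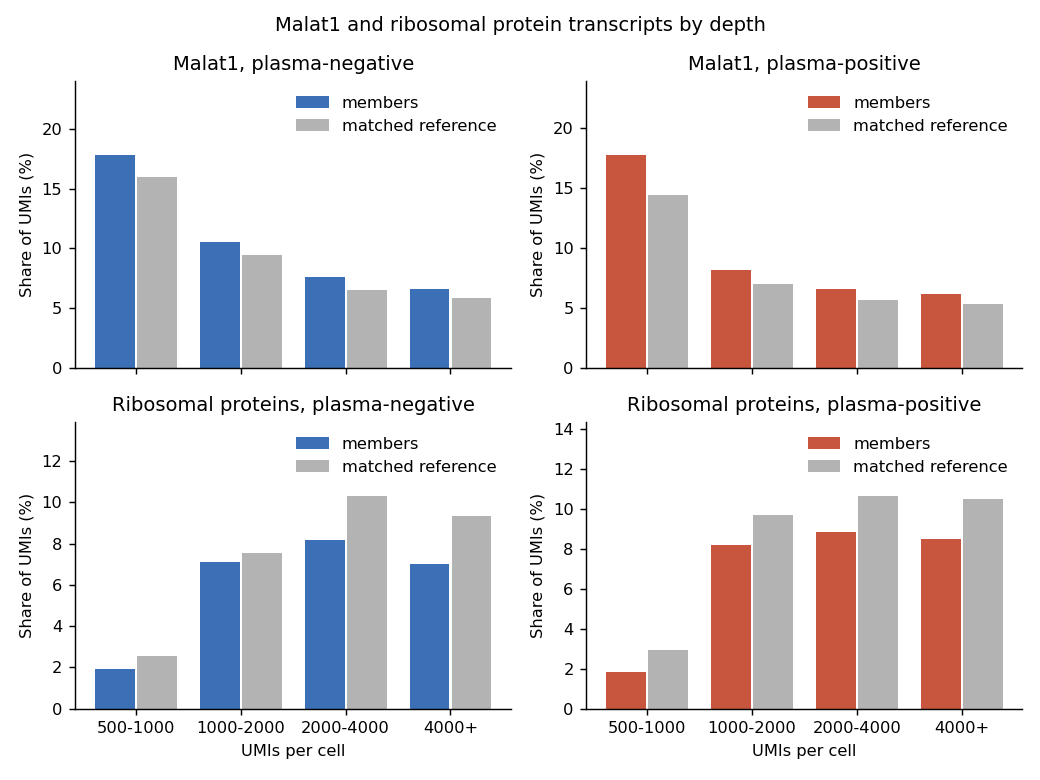
Share of summed UMIs (vertical axis, percent) on Malat1 (top row) and on cytosolic ribosomal protein genes (bottom row) in low-mitochondrial cells (coloured bars) and their depth-matched reference cells (grey bars), by UMIs per cell (horizontal axis), in the plasma-negative (left) and plasma-positive (right) library. Malat1 is higher and ribosomal protein genes are lower in the low-mitochondrial cells in all 4 depth ranges of both libraries, while both measures differ more between 500 to 1000 UMIs and the deeper ranges than between the groups of cells; no error bars are drawn because the counting intervals are narrow.

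Other nuclear-retained RNAs gave smaller counts and a less even picture. Of the 16 RNAs on the list, 13 are in the deposited gene set, and 7 reached 10 CPM in the plasma-negative and 6 in the plasma-positive library. Kcnq1ot1, an imprinted antisense RNA of the Kcnq1 locus, had 351 CPM against 266 CPM in the plasma-negative library, a log2 ratio of 0.40 (0.25 to 0.56), and 301 against 270 CPM in the plasma-positive library, a log2 ratio of 0.16 (-0.09 to 0.41). Neat1, the scaffold of nuclear paraspeckles, had 83.2 against 56.9 CPM, a log2 ratio of 0.55 (0.22 to 0.89), and 59.0 against 55.0 CPM, a log2 ratio of 0.10 (-0.46 to 0.67). Tug1 had 85.0 against 93.2 CPM and 91.2 against 87.1 CPM, and both intervals of its log2 ratio include 0 (-0.42 to 0.16 and -0.38 to 0.51). Jpx and Ftx, both from the X inactivation centre, and Pvt1 lay under 40 CPM, with log2 ratios of 0.44, 0.75 and 0.10 in the plasma-negative library and -0.06, 0.17 and -0.17 in the plasma-positive library. Among plasma-positive cells no RNA of the list other than Malat1 was separated from its reference level beyond counting error. Kcnq1ot1 and Tug1 are annotated as antisense genes, and whether strand was used in counting is not stated, so reads of overlapping genes cannot be told apart from theirs. The non-coding genes of class lincRNA without Malat1 held 0.761 against 0.720% of UMIs in the plasma-negative and 0.699 against 0.670% in the plasma-positive library, ratios of 1.06 (1.03 to 1.08) and 1.04 (1.01 to 1.08), which turned to 0.972 and 0.981 under TMM scaling. TMM sets the bulk of genes equal between the 2 groups of cells and shifted all log2 ratios by -0.12 in the plasma-negative and by -0.09 in the plasma-positive library, and the Malat1 log2 ratios became 0.08 and 0.14.

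Transcripts of splicing and speckle proteins were a little higher as a group. The 31 genes of the list together held 1.39% of UMIs in low-mitochondrial and 1.18% in reference cells of the plasma-negative library, a ratio of 1.18 (1.16 to 1.2), and 1.23 against 1.13% in the plasma-positive library, a ratio of 1.1 (1.07 to 1.12). In the plasma-negative library 30 of 31 had a log2 ratio above 0 with a median of 0.26, and in the plasma-positive library 25 of 31 did with a median of 0.15. Over all 8564 and 8695 genes at 10 CPM or more, 65.8 and 57.8% were above 0 and the medians were 0.12 and 0.09. Under TMM scaling 29 and 20 of 31 were above 0. None of the 31 passed 1.5-fold in either library. Ddx5, an RNA helicase, had 1534 against 1278 CPM and 1392 against 1259 CPM. Prpf38b, a spliceosome factor, had 261 against 176 CPM and 233 against 177 CPM, Srsf2, a serine and arginine rich splicing factor, had 441 against 334 CPM and 365 against 307 CPM, and Son, a core protein of the speckles, had 1370 against 1250 CPM and 1251 against 1185 CPM, with log2 ratios under TMM of 0.01 and -0.01. Tra2b, a splicing regulator, lay below its reference level in both libraries, with 229 against 235 CPM and 242 against 272 CPM.

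Chromatin regulators held 0.425 against 0.367% of UMIs in the plasma-negative library, a ratio of 1.16 (1.12 to 1.19), and 0.379 against 0.345% in the plasma-positive library, a ratio of 1.1 (1.05 to 1.15). Of the 24 genes, 21 and 15 were above 0, with medians of 0.21 and 0.08 on the log2 scale. Among all genes at 10 CPM or more, 65.8 and 57.8% were above 0, with medians of 0.12 and 0.09. The plasma-positive median of the list was thus no higher than that of all genes. Under TMM scaling 17 and 11 were above 0. Zeb2, a repressor that marks the macrophage lineage, had 789 against 661 CPM and 724 against 584 CPM. Ankrd11 had 299 against 261 CPM and 300 against 236 CPM. Chd4, a remodelling ATPase named after its values were seen, had 173 against 133 CPM and 175 against 138 CPM. Nsd1 was detected in 43.6 against 37.9% and 43.5 against 42.0% of cells. Below the reference lay 3 and 9 of the 24 genes, with lowest log2 ratios of -0.36 and -0.38. Among them in the plasma-positive library was Arid1b, with 52.8 against 49.3 CPM and 22.8 against 25.9 CPM.

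Ribosomal protein transcripts showed the most even shift. Cytosolic ribosomal protein genes together held 7.64% of UMIs in low-mitochondrial and 9.62% in reference cells of the plasma-negative library, a ratio of 0.794 (0.789 to 0.799), and 8.41 against 10.2% in the plasma-positive library, a ratio of 0.824 (0.816 to 0.832). Of the 83 genes at 10 CPM or more, 83 were below the reference in the plasma-negative and 82 in the plasma-positive library, also under TMM scaling. None passed 1.5-fold, and the log2 ratios ran from -0.49 to -0.05 and from -0.52 to 0.24. Rps29 of the small subunit had 3921 against 5234 CPM and 4295 against 5584 CPM. Rplp1 of the large subunit's stalk had 2677 against 3320 CPM and 2670 against 3488 CPM, and Fau, which encodes a small subunit protein fused to a ubiquitin-like one, had 2272 against 3011 CPM and 2597 against 3249 CPM. By depth, the ratio for the whole group was 0.757, 0.947, 0.795 and 0.753 in the plasma-negative and 0.618, 0.845, 0.833 and 0.810 in the plasma-positive library, lower than 1 in each range. Many of these genes have near-identical pseudogene copies and how shared reads were counted is not stated, so single members are less certain than the group.

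Translation factor genes held 0.764 against 0.842% and 0.812 against 0.875% of UMIs, ratios of 0.908 (0.889 to 0.927) and 0.928 (0.9 to 0.957), but the members went both ways, with 9 of 14 below the reference in the plasma-negative and 7 of 14 in the plasma-positive library, or 12 and 11 under TMM scaling. The lower sums came from the abundant Eef1a1, an elongation factor, with 1821 against 2142 CPM and 1976 against 2207 CPM, and Tpt1 with 1652 against 2108 CPM and 1851 against 2279 CPM. Eif4g2, an initiation factor homologue, was above its reference level with 377 against 301 CPM and 371 against 304 CPM.

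Nuclear genes for mitochondrial parts did not all follow the mitochondrial genome. Genes of oxidative phosphorylation that are encoded in the nucleus held 0.972 against 1.13% of UMIs in the plasma-negative library, a ratio of 0.861 (0.845 to 0.876), and 1.07 against 1.19% in the plasma-positive library, a ratio of 0.899 (0.876 to 0.924). Of 76 genes, 61 and 59 were below the reference, and none passed 1.5-fold. Atp5e, a subunit of the ATP synthase, had 305 against 403 CPM and 326 against 456 CPM, Cox8a had 318 against 455 CPM and 397 against 423 CPM, and Cox7c had 377 against 419 CPM and 386 against 456 CPM, the last a pair of cytochrome c oxidase subunits. Mitochondrial ribosomal proteins, in contrast, had ratios of 1.00 (0.971 to 1.03) and 0.969 (0.927 to 1.01), and the genes of protein import and mitochondrial DNA expression had ratios of 1.04 (0.990 to 1.09) and 0.970 (0.903 to 1.04). Mitophagy and dynamics genes had ratios of 1.06 (0.996 to 1.12) and 1.00 (0.914 to 1.1), and glycolysis genes 0.998 (0.956 to 1.04) and 1.01 (0.947 to 1.08). All these intervals include 1 on the CPM scale. Under TMM scaling the members above the reference went from 44 to 25 of 76 and from 35 to 23 of 75 for mitochondrial ribosomal proteins, and from 6 to 2 of 14 and from 7 to 6 of 14 for glycolysis. The TMM log2 ratios of the sums were -0.12 and -0.13 for mitochondrial ribosomal proteins and -0.12 and -0.07 for glycolysis. Of 13 mitophagy and dynamics genes, 9 and 8 were above the reference and 4 and 5 below it. The mitophagy receptor gene Bnip3 had 37.1 against 26.0 CPM and 43.5 against 27.0 CPM, and Pink1 had 23.7 against 21 CPM and 31.1 against 28.0 CPM. Both lay under 50 CPM and are named after their values were seen. Bnip3l, also on the list, was detected in 36.1 against 36.6% and 32.7 against 39.2% of cells. In the plasma-positive library 1 of the list's 7 genes at 50 CPM or more was past 1.5-fold lower, as were 1.00% of all genes. The proteasome genes were at 1.07 (1.04 to 1.1) and 1.07 (1.02 to 1.12), and under TMM scaling the plasma-negative log2 ratio was -0.02.

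**Figure D3:**
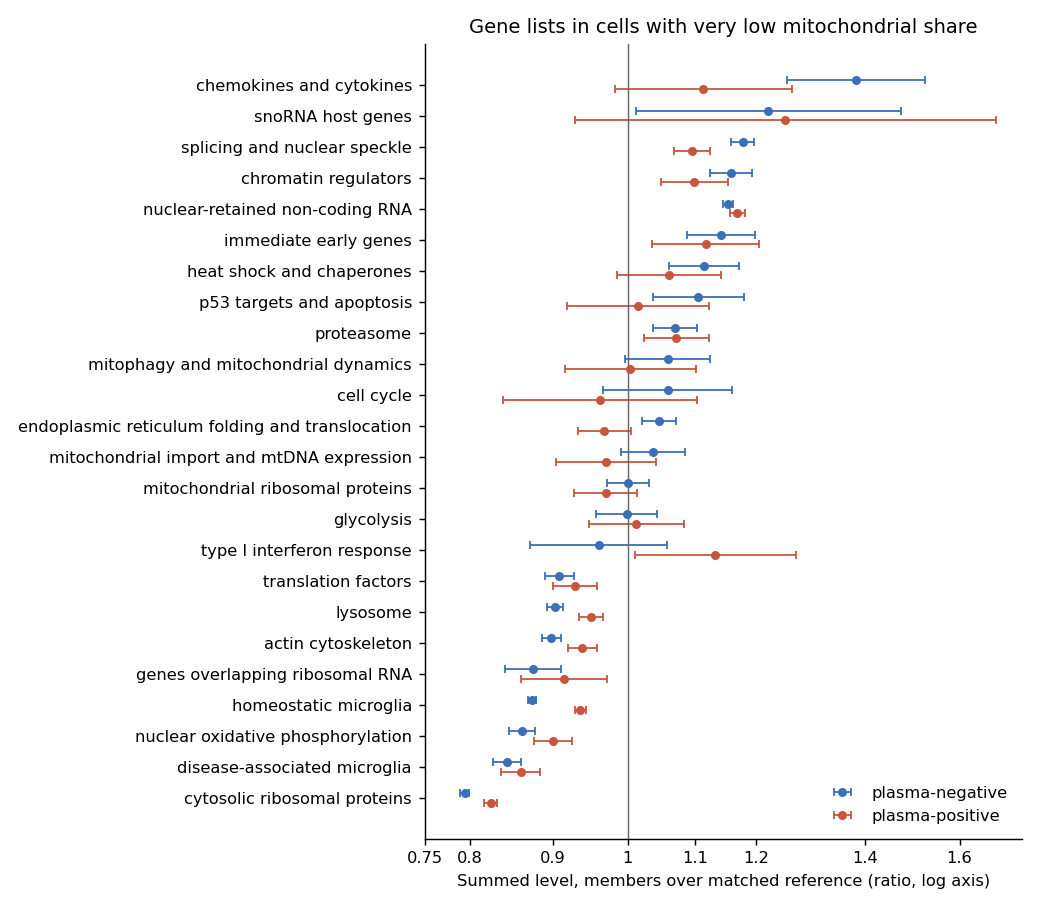
Ratio of the summed level of each of 24 gene lists in low-mitochondrial cells to that in depth-matched reference cells (horizontal log axis) in the plasma-negative (blue) and plasma-positive (red) library; points are ratios and bars exact conditional binomial 95% intervals, which cover counting error only. Cytosolic ribosomal proteins are lowest at 0.794 and 0.824, and the splicing and chromatin lists lie above 1 in both libraries, as does the nuclear-retained RNA list, whose sum is nearly all Malat1.

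The genes that define resting microglia differed unevenly. The 21 homeostatic genes together held 10.6 against 12.2% of UMIs in the plasma-negative library, a ratio of 0.873 (0.868 to 0.878), and 11.6 against 12.4% in the plasma-positive library, a ratio of 0.935 (0.928 to 0.943). The difference came mostly from Cst3, the secreted protease inhibitor cystatin C, which had 39584 against 52646 CPM and 48329 against 56249 CPM. The complement genes C1qb, with 7602 against 9226 CPM and 8595 against 9706 CPM, and C1qc, with 6368 against 7290 CPM and 6844 against 7415 CPM, were also lower. Other homeostatic genes were higher: the fractalkine receptor Cx3cr1 had 7421 against 6205 CPM and 6345 against 5501 CPM, the orphan receptor Gpr34 had 2680 against 2407 CPM and 2430 against 2166 CPM, the purine receptor P2ry13 had 803 against 669 CPM and 715 against 619 CPM, and the transcription factor Mef2c had 1825 against 1632 CPM and 1841 against 1573 CPM. In all, 10 of 21 and 12 of 21 were above the reference, with medians of -0.02 and 0.04, so that the median and the sum differ in direction in the plasma-positive library. Under TMM scaling 5 and 7 of 21 were above. Cx3cr1, Gpr34, P2ry13 and Mef2c are named here after their values were seen.

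Lysosomal and adaptor transcripts were lower. Of 16 lysosomal genes 14 lay below the reference in each library, and the ratio of their sum was 0.902 (0.892 to 0.912) and 0.950 (0.934 to 0.966). Ctsd, an aspartic protease, had 4093 against 5008 CPM and 4413 against 4952 CPM, Ctss, a cysteine protease, had 7013 against 7642 CPM and 8149 against 8382 CPM, and Npc2, a cholesterol carrier, had 450 against 586 CPM and 574 against 687 CPM. Tyrobp, the signalling adaptor of Trem2, had 1969 against 2781 CPM and 2315 against 3026 CPM, log2 ratios of -0.50 (-0.55 to -0.44) and -0.39 (-0.47 to -0.31). On the list of disease-associated microglia genes, which held 0.865 against 1.03% and 0.992 against 1.15% of UMIs, Tyrobp, the ferritin gene Fth1 and B2m made most of the difference. B2m, the invariant chain of MHC class I, had 1051 against 1314 CPM and 1250 against 1559 CPM. Lpl, lipoprotein lipase, went the other way with 56.8 against 23.3 CPM and 26.9 against 14.5 CPM. In the plasma-negative low-mitochondrial cells 30.7% of its UMIs lay in 5 cells, and the plasma-positive values rest on 26 and 14 UMIs. All reference cells, matched or not, had 25.2 and 22.5 CPM of Lpl. Actin cytoskeleton genes had ratios of 0.898 (0.885 to 0.910) and 0.938 (0.919 to 0.957), led by Tmsb4x, the actin-binding thymosin beta 4, with 8261 against 9923 CPM and 9667 against 10934 CPM, while Actb, beta-actin, had 3785 against 3848 CPM and 4274 against 4311 CPM.

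Because genes near 50 CPM had few molecules, the 252 genes at 500 CPM or more in both libraries were also described, a limit chosen after the values were seen. The mt- genes were left out. Of these genes 82 were higher in the low-mitochondrial cells of both libraries, 131 were lower in both, 72 of them ribosomal protein genes, and 39 went opposite ways. Under TMM scaling the numbers were 45, 171 and 36, and with the total taken without mitochondrial and ribosomal protein genes they were 67, 147 and 38. Pearson's r across these genes, which do not vary independently, between the log2 ratios of the 2 libraries was 0.879. At the upper end stood Epb41l2, a membrane skeleton protein, with 1217 against 924 CPM and 1202 against 864 CPM, Arhgap5, a GTPase-activating protein, with 1374 against 1059 CPM and 1272 against 993 CPM, and Kctd12 with 1029 against 780 CPM and 990 against 796 CPM. Txnip, a thioredoxin inhibitor, had 537 against 428 CPM and 522 against 424 CPM. The RNA-binding proteins Hnrnpa2b1, Qk and Mbnl1 and the macrophage transcription factor Maf were also among the 12 highest, with Qk at 1387 against 1164 CPM and 1278 against 1065 CPM, and Maf at 1241 against 1057 CPM and 1116 against 896 CPM. At the lower end Tyrobp, Fcer1g and B2m stood among ribosomal protein genes such as Rpl36a, with 423 against 592 CPM and 458 against 601 CPM. Fcer1g, an adaptor of Fc receptors, had 1940 against 2503 CPM and 2301 against 2887 CPM.

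**Figure D4:**
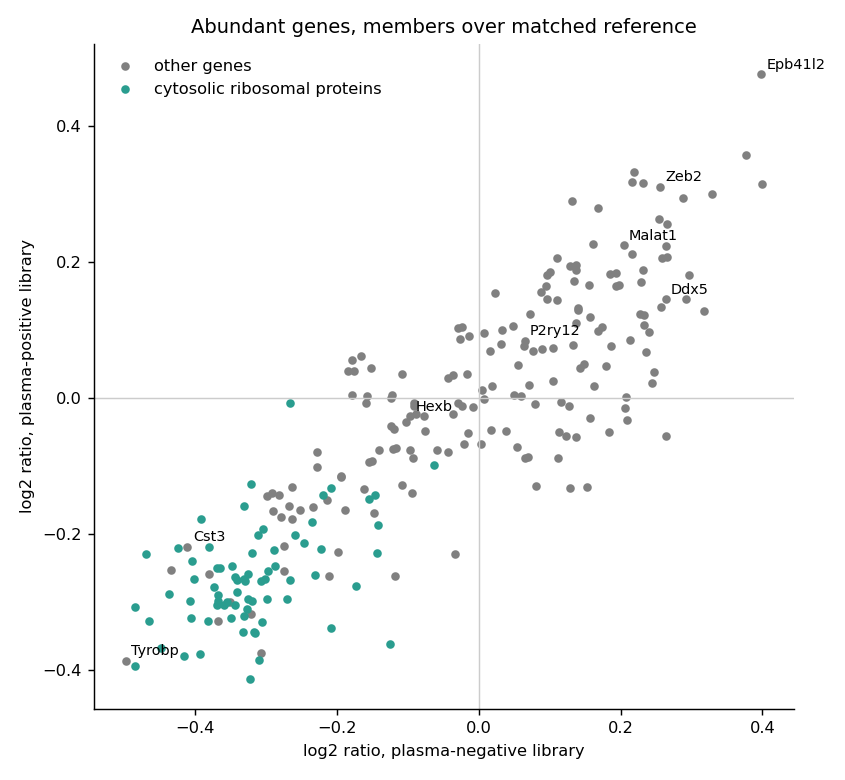
Log2 ratio of low-mitochondrial to matched reference cells in the plasma-negative (horizontal axis) and plasma-positive (vertical axis) library for 252 genes at 500 CPM or more in both; each point is a gene, green points are cytosolic ribosomal protein genes, and no errors are drawn. Ribosomal protein genes, Tyrobp and Cst3 lie at the lower left, Epb41l2 at the upper right with 0.40 and 0.48, and Malat1 at 0.20 and 0.22; TMM scaling would shift all points by -0.12 along the horizontal and -0.09 along the vertical axis.

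Gene length moved with the ratio. Protein-coding genes at 50 CPM or more, without ribosomal protein genes, were split into 5 classes of equal size by annotated exonic length, a split chosen after the values were seen. In the shortest class, from 0.415 to 2.58 kb, 43.5% of 742 genes were higher in the low-mitochondrial cells of the plasma-negative library, and the longer classes had, in order, 65.8, 77.1, 77.8 and 83.0%. The plasma-positive shares were 43.0, 56.0, 67.2, 66.7 and 70.6%. The median log2 ratio went from -0.04 to 0.17 and from -0.03 to 0.13 between the shortest and the longest class, a spread that a common scaling leaves as it is. Classes by the length of the whole gene gave 50.7, 65.5, 73.3, 76.8 and 80.9% in the plasma-negative and 49.1, 58.2, 59.9, 67.2 and 69.0% in the plasma-positive library. The part of length in the results for the gene lists was not tested.

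Malat1, ribosomal protein, oxidative phosphorylation and splicing genes also differed among cells outside the limit, along the range of the mitochondrial share. Among cells of 2000 to 4000 UMIs with under 2 UMIs of Cdkn1a, Malat1 went from 7.68% of UMIs in plasma-negative cells at 0 to 0.1% mitochondrial share through 7.38% at 0.35 to 0.5% and 6.54% at 0.8 to 1.6% to 4.92% at 2.5 to 10%. In plasma-positive cells it went from 7.06 through 6.44 and 5.55 to 4.11%. Ribosomal protein genes went from 7.22 through 9.05 and 10.0 to 12.8% in plasma-negative cells and from 7.12 through 9.70 and 10.8 to 14.9% in plasma-positive cells. The splicing list went from 1.4 to 0.995% and from 1.28 to 0.939%, and nuclear oxidative phosphorylation genes from 0.956 to 1.25% and from 1.04 to 1.38%. Across the limit of 0.35%, from the bin below it to the bin above it, Malat1 went from 7.49 to 7.38% in plasma-negative cells and from 6.44 to 6.44% in plasma-positive cells, and ribosomal protein genes from 8.57 to 9.05% and from 9.30 to 9.70%. The lowest bin of the plasma-positive library had 33 cells. The homeostatic list went from 10.5% in the lowest bin through 12.5% at 0.8 to 1.6% to 12.8% in the highest bin in plasma-negative cells, whereas in plasma-positive cells it went from 11.2 through 12.8 back to 11.6%.

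**Figure D5:**
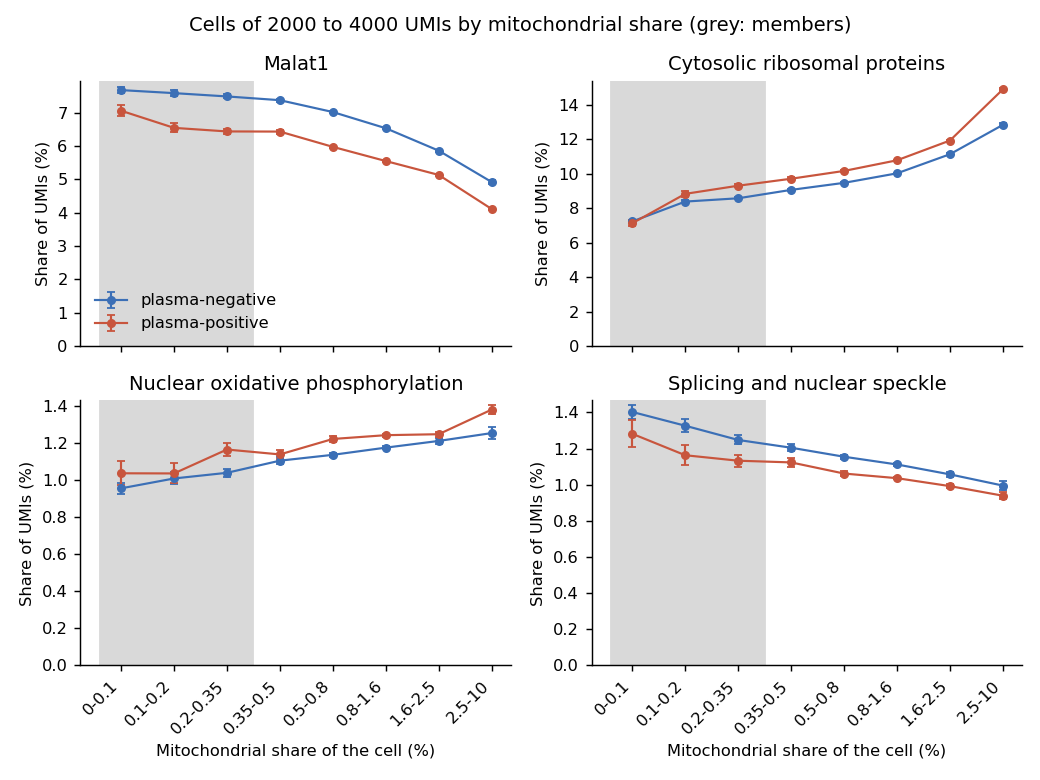
Share of summed UMIs (vertical axes, percent, from 0) on Malat1, cytosolic ribosomal protein genes, nuclear oxidative phosphorylation genes and splicing genes, by the mitochondrial share of the cell (horizontal axis, percent, in 8 bins of unequal width), in plasma-negative (blue) and plasma-positive (red) cells of 2000 to 4000 UMIs; points are shares, bars exact binomial 95% intervals for counting error, and the grey area marks the 3 bins of low-mitochondrial cells. Malat1 goes from 7.68 to 4.92% and from 7.06 to 4.11% from the lowest to the highest bin while ribosomal protein genes go from 7.22 to 12.8% and from 7.12 to 14.9%.

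Within the low-mitochondrial cells of 2000 to 4000 UMIs, the 72 plasma-negative cells without any mitochondrial UMI were compared with the 451 that had some. Malat1 held 7.55 and 7.57% of UMIs, ribosomal protein genes 7.02 and 8.35%, the splicing list 1.42 and 1.29%, and homeostatic genes 10.1 and 11.3%. Of the plasma-positive cells 13 had none, with 8.85% Malat1 and 6.73% ribosomal protein UMIs, against 6.41 and 8.99% in the other 197. Across single matched low-mitochondrial cells of that depth, Spearman's rank correlation of the Malat1 and the ribosomal protein share was -0.20 over 523 plasma-negative and -0.34 over 210 plasma-positive cells, against -0.29 over 521 and -0.34 over 210 reference cells. Cells of 1 library share that library and both shares have the cell's total as denominator, so these are descriptions. Thinned to 1000 UMIs per cell, the median low-mitochondrial cell had 667 genes and the median reference cell 644 in the plasma-negative library, and 658 and 644 in the plasma-positive library, where 99 and 100, and 62 and 61, shallower cells were left out. The unthinned medians were 1429.5 against 1368 and 1410.5 against 1390 genes.

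By the rule of size, with at least 50 CPM in either group of cells and a ratio of 1.5 or more either way, 71 of 3838 genes were higher (1.85%) and 8 lower (0.208%) in the low-mitochondrial cells of the plasma-negative library, and 138 of 3795 were higher (3.64%) and 38 lower (1.00%) among plasma-positive cells. At 2-fold these were 3 (0.0782%) and 1 (0.0261%), and 8 (0.211%) and 3 (0.0791%). TMM scaling gave 29 higher and 42 lower, and 81 higher and 81 lower, and the total without mitochondrial and ribosomal protein genes gave 56 and 21, and 136 and 65. The larger counts of the plasma-positive library go with fewer molecules: 50 CPM is 112 UMIs in the plasma-negative and 48.3 UMIs in the plasma-positive low-mitochondrial cells. At 200 CPM or more 3 and 2 genes were higher. Past 1.5-fold in both libraries, out of 3605 genes, were 4 higher (0.111%), Ccl4, Ccl3, Socs4 and Bdp1, and 1 lower (0.0277%), Ramp1. In both libraries the 4 higher genes reached 50 CPM in the low-mitochondrial cells alone. Ramp1 reached it in the plasma-positive library in the reference cells alone. The minimum thus let these genes in through the group where they were high, and their presence in both libraries is a description. Few genes passed the size rule, and 5 of them did in both libraries.

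The genes with the highest smaller ratio of the 2 libraries were mostly of low abundance, and since their ratios chose them, their values are a description. After Ccl4 and Ccl3 came Socs4, a suppressor of cytokine signalling, with 62.6 against 41.2 CPM and 58.0 against 32.1 CPM, and Bdp1, a subunit of the RNA polymerase III factor TFIIIB, with 63.1 against 41.6 CPM and 55.9 against 34.2 CPM. The matched reference was low for both genes. All reference cells, matched or not, had 47.0 and 46.0 CPM of Socs4 and 55.2 and 47.0 CPM of Bdp1. Apobr, a receptor for apolipoprotein B, had 58.6 against 31.8 CPM and 59.0 against 39.4 CPM. Kif5b, a kinesin motor, was the most abundant of the 12 with 166 against 99.4 CPM and 144 against 97.5 CPM. The other 6, Gm26532, Hnrnpul2, Fnbp4, Casp8ap2, Bag5 and Sec63, had log2 ratios between 0.53 and 1.24. At the lower end, Ramp1, which partners the calcitonin receptor-like receptor, had 55.9 against 92.7 CPM and 42.5 against 69.5 CPM. Ndufb2 of complex I had 54.6 against 77.9 CPM and 62.2 against 88.1 CPM, and Mrps21 of the mitochondrial ribosome had 74.7 against 100 CPM and 75.6 against 104 CPM. Cd52, a small surface glycoprotein, was the most abundant with 279 against 391 CPM and 381 against 521 CPM. Eif3h, Ubl5, Hfe, of iron uptake, Fcgrt, the neonatal Fc receptor, Abhd17a, Gm11808 and 4933434E20Rik were also among the 12 lowest.

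The chemokine ratios came from very few cells. Ccl4 had 74.2 against 4.03 CPM in the plasma-negative library, but its 166 UMIs lay in 21 of 826 cells, 85 of them in 1 cell and 89.2% in 5 cells, and 9 reference cells had a UMI. In the plasma-positive library it had 70.4 against 9.33 CPM, with 65 of 68 UMIs in 1 cell and UMIs in 4 low-mitochondrial and 8 reference cells. Without the 5 highest cells of each group the levels were 8.11 against 1.81 CPM and 0 against 3.17 CPM. Ccl3 had 50.5 against 8.06 CPM and 52.8 against 8.30 CPM, with 54 of 113 and 33 of 51 UMIs in 1 cell. In all reference cells, matched or not, Ccl4 had 13.3 and 21.8 CPM, above the matched ones. The share of cells with a Ccl4 UMI was 2.54 against 1.09% in the plasma-negative and 1.14 against 2.27% in the plasma-positive library, on opposite sides of equality.

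Genes of the early response were somewhat higher in sum in both libraries, and those of stress beyond counting error in the plasma-negative library alone. Immediate early genes, transcribed within minutes of a stimulus, had ratios of 1.14 (1.09 to 1.2) and 1.12 (1.04 to 1.21), with 11 of 12 and 8 of 12 above the reference. Of all genes at 10 CPM or more, 65.8 and 57.8% were above it. Under TMM scaling 9 and 7 of the 12 immediate early genes were above the reference. Klf6 had 193 against 150 CPM and 176 against 120 CPM, and Ier5 had 297 against 238 CPM and 281 against 236 CPM. Jund was detected in 41.5 against 42.9% and 41.5 against 40.9% of cells, and Junb in 38.1 against 36.8% and 36.1 against 35.2%. Atf3, a stress-induced factor, had 36.2 against 20.6 CPM and 60.1 against 19.7 CPM. Klf6 and Atf3 are named after their values were seen. Fos, Fosb, Egr2 and Nr4a1 were at or under 1.34 CPM in all 4 groups of cells. Heat shock genes had ratios of 1.11 (1.06 to 1.17) and 1.06 (0.985 to 1.14), and p53 target and apoptosis genes ratios of 1.11 (1.04 to 1.18) and 1.01 (0.917 to 1.12), and both plasma-positive ratios lay below 1 under TMM scaling. Bax, which permeabilises the mitochondrial outer membrane in apoptosis, had 124 against 89.1 CPM and 115 against 94.4 CPM. The sign of its plasma-positive ratio changed under at least 1 alternative. Btg1, of the same list, was detected in 56.8 against 58.4% and 58.0 against 57.7% of cells, and Sesn1 in 24.2 against 20.1% and 19.6 against 19.0%. Endoplasmic reticulum genes had ratios of 1.05 (1.02 to 1.07) and 0.968 (0.932 to 1.00), on opposite sides of 1, and under TMM scaling both were below 1. Cell cycle genes had ratios of 1.06 (0.965 to 1.16) and 0.962 (0.838 to 1.1). The 3 genes that overlap ribosomal RNA repeats were split, with Gm42418 at 1915 against 2221 CPM and 1906 against 2116 CPM and Gm26917 at 55.9 against 33.6 CPM and 50.8 against 36.3 CPM. The list of snoRNA host genes could not be described as a list, since 3 of its 11 members are in the deposited gene set. Among them Snhg12 had 79.6 against 64.5 CPM and 82.9 against 60.1 CPM.

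Cells with 2 or more Cdkn1a UMIs were kept apart by the rule. Of 162 such plasma-negative cells 43 had under 0.35% mitochondrial UMIs (26.5%, 19.9 to 34.0%), against 8.92% of the other plasma-negative cells, and of the plasma-positive ones 6 had (4.88%, 1.81 to 10.3%), against 3.75% of the others. The 43 had 7.78% Malat1 and 7.0% ribosomal protein UMIs. A single Cdkn1a UMI was found in 65 and 16 of the low-mitochondrial cells.

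The study's own comparison, cells with against cells without plasma protein, was also read within all low-mitochondrial cells. In them 25 of 3899 genes were 1.5-fold higher in the plasma-positive cells (0.641%) and 44 lower (1.13%). Matched reference cells gave 25 of 3649 higher (0.685%) and 33 lower (0.904%). The 2 sets of low-mitochondrial cells differed in depth, since 24.7% of the plasma-positive and 16.1% of the plasma-negative ones had 500 to 1000 UMIs, and the part of depth in the result was not tested.

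Apoe, the lipid carrier apolipoprotein E, was higher in the plasma-positive low-mitochondrial cells, with 473 CPM in them and 68.6 CPM in the plasma-negative ones, a log2 ratio of 2.78. Their matched reference cells had 549 and 178 CPM, a log2 ratio of 1.63, and all reference cells, matched or not, had 943 and 156 CPM. Without the 5 highest cells of each group the levels were 298 and 49.1 CPM. The share of cells with an Apoe UMI was 26.2 and 7.50%, against 28.7 and 12.7% in the matched reference. Set against their reference, the low-mitochondrial cells had 68.4 against 178 CPM of Apoe in the plasma-negative and 459 against 549 CPM in the plasma-positive library, and in the latter the sign of the ratio changed with the alternative used (log2 -0.89 to 0.29). Ifi27l2a, an interferon-induced gene, had 67.9 and 12.8 CPM, a log2 ratio of 2.40, while the matched reference had 56.0 and 23.3 CPM and all reference cells had 63.7 and 18.2 CPM. Slfn2, of the Schlafen family, had 139 and 78.3 CPM. The 15 interferon response genes together had a ratio of 1.82 (1.64 to 2.02) in low-mitochondrial and of 1.55 (1.39 to 1.73) in reference cells. The 12 of them at 10 CPM in either library were all higher in plasma-positive low-mitochondrial cells, with a median log2 ratio of 1.15. Over all genes at 50 CPM or more that median was -0.03. A gene could reach 10 CPM in the plasma-positive cells alone, so the count of 12 is a description. Whether the plasma ratio differs between low-mitochondrial and reference cells was not tested.

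Gdf15, a stress-induced cytokine, had the highest plasma ratio but its 99 UMIs in the plasma-positive low-mitochondrial cells lay in 1 cell, as did the 18 in the plasma-negative ones. Fam196b had 51.7 and 25.2 CPM, and Rbm15, an adaptor of RNA methylation, 71.0 and 41.15 CPM. In the matched reference Fam196b had 20.7 and 14.8 CPM and Rbm15 46.7 and 41.2 CPM. All reference cells, matched or not, had 9.13 and 10.9 CPM of Fam196b and 41.4 and 46.7 CPM of Rbm15, the other way in both genes. Of the 51 Fam196b UMIs in plasma-positive low-mitochondrial cells, 29.4% lay in 5 cells. The lowest ratios were those of Arid1b, a chromatin remodelling subunit, with 22.3 CPM in plasma-positive and 52.7 CPM in plasma-negative low-mitochondrial cells, Nolc1, a nucleolar protein, with 23.3 and 54.0 CPM, Fry with 29.4 and 66.8 CPM, and 4933406I18Rik. In the reference Nolc1 had 50.8 and 43.9 CPM and Fry 68.4 and 62.7 CPM, while Arid1b had 25.9 and 49.3 CPM there. Over all reference cells, matched or not, Arid1b had 45.9 and 49.4 CPM, so the low level in the plasma-positive matched cells was not present over all 4807 reference cells. Among the groups, plasma-positive low-mitochondrial cells had more ribosomal protein UMIs than plasma-negative ones, 8.27 against 7.58% (ratio 1.09, 1.08 to 1.1), and the reference cells had 10.2 against 9.62%. Malat1 had 72910 CPM in plasma-positive and 80470 CPM in plasma-negative low-mitochondrial cells, and 60331 and 68842 CPM in the matched reference.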

How the data were processed

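Each sort gave 1 droplet library, prepared with 10x Genomics 3' reagents per the labels' protocols. The authors deposited whole-number UMI counts for every gene in every cell, and the file headers name Cell Ranger 6.1.2, whereas the submitters' processing notes name Cell Ranger 3.0.1. Genome build, annotation, strand use, the treatment of reads shared by several genes and cell calling are not given in the sources used here. The lowest totals among cells kept were 504 and 501 UMIs. Each matrix lists 31053 genes, of which 35 symbols have more than 1 identifier, and 31011 identifiers were found in GENCODE M21 (GRCm38), used for coordinates, classes and lengths alone. Cell barcodes were not analysed here, so barcodes shared by the libraries were not counted.

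Cells were kept with at least 500 UMIs and 300 genes, which left out 1 plasma-negative cell. Low-mitochondrial cells were matched without replacement to reference cells on total UMIs, deepest first, within 5%. Counts were summed per group of cells and compared as CPM ratios with exact conditional binomial 95% intervals, and shares have exact binomial (Clopper-Pearson) intervals. A gene was called at 50 CPM in either group and 1.5-fold, and lists used members at 10 CPM; mt- genes and Cdkn1a were left out of the counts of calls. With 1 library per group no test was run. Named genes were the nuclear-retained RNAs at 10 CPM, the 12 genes highest and 12 lowest in both libraries, the 3 most abundant members of each list, and for the plasma comparison 6 genes highest and 4 lowest; further members are named as examples after their values were seen. Some genes that these rules name are not reported here. Members, lists and rules were chosen with earlier results of these data known. Scrublet, run in scanpy 1.11.5, called 0 and 1 doublets at set rates of 7.90 and 8.31% of cells. Why it called so few was not examined, and no cell was removed for it. As an alternative, 780 and 864 top-scoring cells were removed. Alternatives covered the mitochondrial limit, reference range, depth, matching, totals, TMM (edgeR 4.0.16), averaging over cells, thinning, and the CPM minimum. Scripts were tested on simulated data. Python 3.11.15, numpy 2.4.6, scipy 1.17.1 and pandas 2.3.3 were used.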

Additional observations from a re-analysis of the deposited data

How the results depend on the processing

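No paired analysis was possible because the study has a single library for each sort, and for the same reason no replicate could be left out. Counts of genes past 1.5-fold were more sensitive to the processing than directions, since most called genes lie near 50 CPM. Relative to the plasma-negative 71 higher and 8 lower, the plasma-positive 138 and 38, the 4 and 1 in both libraries, and the plasma comparison's 25 and 44, the counts moved by over 1.5 times as follows.

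A mitochondrial limit of 0.25% gave 162 and 37, 376 and 131, 20 and 3, and 94 and 135. A limit of 0.45% gave 14 and 2, 43 and 11, 0 higher in both, and 10 and 14. A minimum of 10 CPM gave 545 and 173, 924 and 520, 85 and 24, and 445 and 594, and one of 200 CPM gave 3 and 1, 2 and 1, 0 and 0, and 2 and 1. Thinning each cell to 1000 UMIs gave 272 and 88, 531 and 303, 40 and 11, and 221 and 315. Averaging over cells gave 15 lower, 252 and 107, 9 and 4, and 109 and 104. Weighting all reference cells by depth gave 34 and 3, 48 and 9, and 2 lower in both. TMM scaling gave 29 and 42, 81 and 81, and 1 and 5. It moved the median log2 ratio of all genes from 0.11 to -0.02 and from 0.07 to -0.03. The total without mitochondrial and ribosomal protein genes gave 21 lower, 65 lower and 2 lower in both, and the total without Malat1 gave 7 higher in both. A reference at 1.0 to 1.4% gave 9 higher in both, removing the highest doublet scores gave 2 lower in both, a minimum of 1000 UMIs per cell gave 2 lower in both, and one of 2000 UMIs gave 9 higher and 3 lower in both and 69 lower in the plasma comparison.

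The Malat1 log2 ratio was above 0 under all 13 alternatives in each library, from 0.08 to 0.22 in the plasma-negative and from 0.14 to 0.26 in the plasma-positive library. From 0.20 it moved beyond counting error to 0.19 with a limit of 0.45%, 0.17 with a reference at 1.0 to 1.4%, 0.19 with all reference cells, 0.16 without mitochondrial and ribosomal protein genes in the total, 0.22 without Malat1 in the total and 0.083 with TMM. From 0.22 in the plasma-positive library it moved to 0.26, 0.25, 0.18 and 0.14 under the reference, all-cells, total and TMM alternatives, and to 0.25 with averaging over cells or doublets removed. The cytosolic ribosomal protein ratio was below 1 under all 13 alternatives in each library.

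The share of low-mitochondrial cells, 8.78 and 3.71%, was 5.99 and 2.30% with a limit of 0.25%, 12.97 and 5.58% with 0.45%, 8.02 and 2.97% at 1000 UMIs or more, 7.53 and 2.85% at 2000 or more and 11.5 and 4.55% after thinning. With doublet scores removed the plasma-negative share was 9.46%. The share was higher in the plasma-negative library in each of these, where the mitochondrial share over all cells was also lower.

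Of 372 log2 ratios of single genes, list sums and list medians, 103 changed sign under at least 1 alternative. These include Apoe, Bax and Gm26917 in the plasma-positive library and the sums for mitochondrial ribosomal proteins (plasma-negative) and for heat shock and p53 genes (plasma-positive). Among genes past 1.5-fold and list sums whose interval left out 0, 4 changed sign. Under TMM scaling the plasma-negative log2 ratio was -0.057 for endoplasmic reticulum genes and -0.024 for proteasome genes. In the plasma-positive library 4933406I18Rik went to 0.25 with a limit of 0.25%, and Socs4 went to -0.15 after thinning. The causes of these movements were not tested. Thinning and stricter limits leave fewer molecules, and at 50 CPM 48.3 UMIs stood behind a plasma-positive gene. Of the results that describe single genes or lists, 366 alternatives moved a value beyond its interval and 4489 did not. For list medians that interval was the median of the limits of single genes, which is not the counting error of a median. The 4489 are therefore no measure of how stable the list medians are.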
